A study of Mus musculus with 4 samples.

Results

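The cell cycle and DNA replication genes are a set of 45 genes chosen by name, and a member is a gene with at least 1 probe set on the array that carries its symbol alone in the platform annotation. This gave 44 members with 85 probe sets, of 12393 genes and 22626 probe sets in all. Ccnb1 had no such probe set here and was not analysed. The set falls into 8 genes of the G1 machinery, 17 genes of replication and nucleotide synthesis, and 19 mitotic genes.

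Gene expression had been measured on Affymetrix 430A arrays in mast cells grown from mouse bone marrow. Donor mice were 8 to 12 weeks old. Their marrow was kept 4 to 6 weeks in medium containing interleukin-3 (5 ng/ml), a cytokine on which mast cells grow, and Kit and FceRI were then found on over 98% of the cells. The 2 wild-type (Pac1+/+) and 2 Pac1-/- cultures, numbered replicates 1 and 2 in each genotype, all received anti-DNP IgE (100 ng/ml) during 18 h, and then the antigen, DNP-HSA at 20 ng/ml, for a final 2 h. Pac1 is the MAP kinase phosphatase encoded by Dusp2. The mouse strain, whether marrow was pooled and what the replicate number stands for are not given in the sources used here. All 4 cultures were activated, so no value here compares activated with resting cells.

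Progress through the cell cycle is driven by cyclins that switch on cyclin-dependent kinases. In G1, D-type cyclins with CDK4 or CDK6 phosphorylate the RB protein and free E2F factors, which turn on genes for DNA replication and nucleotide supply. The MCM helicase is loaded at origins and PCNA clamps the polymerases to DNA. Mitotic genes are held down by the DREAM complex in resting cells and turned on later by MuvB with B-MYB and FOXM1, through an element called CHR that often lies beside CCAAT boxes bound by NF-Y. In a bulk culture their RNA tracks how many cells are cycling, and fewer cycling cells and less RNA per cycling cell cannot be told apart.

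Because these factors act through short DNA motifs, the upstream sequences of a few members are shown first. The RefSeq promoter table (GRCm38.p6) held 35 of the 44 members, each with 250 bases before and 50 after the start. Both strands were searched for CHR (TTTGAA or TTCGAA), for CCAAT, and for E2F sites in the forms TTTCCCGC, TTTCGCGC, TTTGGCGC and TTTGCCGC. In the sequences shown, matches at -186 and -183 of Ube2c overlap, as CCAAT on opposite strands, and no match overlaps one of another motif. The 250 bases before the start are printed on the strand of the gene, with matches in capitals. Rrm2, Ube2c and Mcm3 had the lowest p-values of the members with a promoter, and Top2a and Cdk1 were added after the matches were seen, to show mitotic promoters without and with an E2F match.
Rrm2: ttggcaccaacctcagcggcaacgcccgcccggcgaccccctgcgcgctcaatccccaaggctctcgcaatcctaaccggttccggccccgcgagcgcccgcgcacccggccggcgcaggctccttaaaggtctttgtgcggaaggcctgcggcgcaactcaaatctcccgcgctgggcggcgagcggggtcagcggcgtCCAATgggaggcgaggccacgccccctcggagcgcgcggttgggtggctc
Ube2c: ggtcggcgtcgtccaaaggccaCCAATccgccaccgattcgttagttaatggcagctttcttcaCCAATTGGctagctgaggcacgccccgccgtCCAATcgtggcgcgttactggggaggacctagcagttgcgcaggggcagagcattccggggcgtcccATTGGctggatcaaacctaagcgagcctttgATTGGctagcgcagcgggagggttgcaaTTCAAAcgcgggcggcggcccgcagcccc
Mcm3: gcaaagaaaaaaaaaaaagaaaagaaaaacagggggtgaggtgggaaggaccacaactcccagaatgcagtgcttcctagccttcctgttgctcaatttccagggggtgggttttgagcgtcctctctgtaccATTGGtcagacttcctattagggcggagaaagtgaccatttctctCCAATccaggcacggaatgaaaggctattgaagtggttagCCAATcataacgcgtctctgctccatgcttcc
Top2a: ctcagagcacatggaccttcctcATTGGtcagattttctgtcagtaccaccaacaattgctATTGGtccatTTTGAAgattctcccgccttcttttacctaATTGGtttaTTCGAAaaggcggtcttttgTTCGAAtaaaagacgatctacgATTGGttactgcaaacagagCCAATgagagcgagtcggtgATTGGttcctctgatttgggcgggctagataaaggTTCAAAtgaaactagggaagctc
Cdk1: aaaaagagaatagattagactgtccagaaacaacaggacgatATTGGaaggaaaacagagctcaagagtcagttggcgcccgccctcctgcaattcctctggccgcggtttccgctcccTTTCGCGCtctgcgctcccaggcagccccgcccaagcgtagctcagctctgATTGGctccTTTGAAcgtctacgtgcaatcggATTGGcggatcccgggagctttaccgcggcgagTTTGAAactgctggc
Rrm2 lies at chr12:24708004-24708253 on the plus strand, with a single CCAAT at position -50 from the start. Ube2c, at chr2:164769679-164769928 on the plus strand, has 6 CCAAT matches and a CHR at -29. Mcm3, at chr1:20820313-20820562 on the minus strand, has 3 CCAAT matches, and its E2F matches lie outside the printed bases, at 20 and 39 after the start. Top2a, at chr11:99024190-99024439 on the minus strand, has 4 CHR and 6 CCAAT matches. Cdk1, at chr10:69352913-69353162 on the minus strand, has CHR matches at -71 and -15, 3 CCAAT matches and an E2F match at -131.

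Both CHR and CCAAT were present in 12 of 15 mitotic members (80%), in 3 of 15 replication and nucleotide genes (20%) and in 0 of 5 G1 genes, against 9.65% of the 27025 genes of the table. A gene with several promoters was counted over all of them, so its CHR and CCAAT may lie in different promoters. By single promoter, both were in 15 of 39 member promoters and in 7.5% of all 32851. E2F matches were in 6 of the 15 replication and nucleotide genes (40%) and in 1 of the 15 mitotic genes (6.67%), against 2.61% of all genes. CCAAT alone was common in the table, in 41.1% of genes. A match describes these letters and is not a measured binding site.

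**Figure D1:**
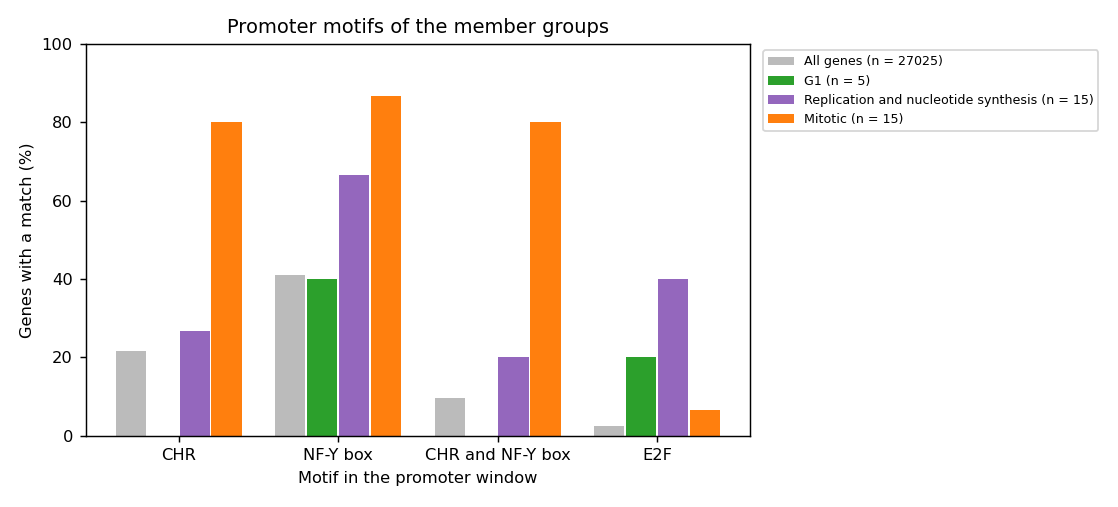
Share of genes, in percent, whose promoter window holds a CHR, an NF-Y box (CCAAT), both, or an E2F match, for all 27025 genes of the table and for the members in 3 groups. The mitotic bars for CHR and for both motifs stand at 80%, and the tallest E2F bar is that of replication and nucleotide genes, at 40%.

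The authors deposited 1 linear intensity per probe set and array. The values below are these intensities after quantile normalisation, which gives the 4 arrays 1 common distribution. Values under 16 were set to 16 before taking log2, and a gene is represented by its brightest probe set. The limma test was run on the 7770 probe sets whose mean reached 100, which cover 4998 genes. Of the 44 members, 22 passed this minimum, 3 in G1, 10 in replication and nucleotide synthesis and 9 in mitosis. Some array gave a reading under 100 for 13 of these 22, and their differences have approximate sizes only. For Cdk4, Cdc20, Mcm3 and Mcm7, 4 in all, the probe set used has the suffix _s_at or _x_at, marking probes that can match more than 1 transcript.

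The labelled cell type was checked first. Of 11 mast cell markers, 9 read at least 100 on all 4 arrays, Cpa3, Cma1, Fcer1a and Kit among them, with summed intensities between 39420 and 49615. Ms4a2, the FceRI beta chain gene, read 142.6 and 3261 in wild-type and 41.9 and 1502 in Pac1-/- cells, high on both replicate 2 arrays. Tpsb2, a tryptase gene, read 475.8 on Pac1-/- replicate 2 and between 5838 and 7259 on the other arrays. Between the genotypes, Kit, Cma1 and Mitf were higher in Pac1-/- cells without overlap. The dim Mcpt4 was lower without overlap, and the other mast cell markers overlapped. Of 10 macrophage markers 2 read at least 100 on all 4 arrays, Adgre1 and Cd68. The summed level was 7983 and 6122 on the wild-type and Pac1-/- replicate 1 arrays against 652 and 656 on the replicate 2 arrays. Cd68 made up most of the sum on the replicate 1 arrays, at 7512 and 5638, and read 118.3 and 120.6 on the replicate 2 arrays. Adgre1 did not follow the numbers, at 248.3 and 250.5 in wild-type and 221.9 and 217 in Pac1-/- cells. The macrophage genes C1qa and Marco were under 16 on every array. No neutrophil, basophil and eosinophil, or lymphocyte marker reached 100 on all arrays. Of 6 measured erythroid and megakaryocyte markers 1 did, Itga2b, with 2037 and 3170 in wild-type and 1721 and 424.4 in Pac1-/- cells, lower in Pac1-/- cells without overlap. The summed level of that list was 2244 and 3389 in wild-type and 1939 and 662 in Pac1-/- cells, and Itga2b made up most of it on every array. Of the dimmer markers, Epor was also lower in Pac1-/- cells without overlap, Gp9 was higher without overlap, and the others overlapped. The part of this list and of the mast cell markers in the genotype differences was not tested. For Dusp2 itself the wild-type values were 167.2 and 90.7 and the Pac1-/- values 109.3 and 75.5, which overlap. The labels do not place its probes relative to the deletion, so these values check nothing about the labels. Pac1-/- replicate 2 stood apart from the other arrays, with a deposited median intensity of 24.5 against 40.6 to 49.3 and a 3' to 5' ratio for the Gapdh control of 191 against 0.80 to 1.36.

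Among the brightest members were Pcna, the sliding clamp, with a mean normalised intensity of 5266, and Ccnd2, the cyclin D2 gene, at 3107. The other 20 tested members had means between 108.6 for Birc5 and 471 for Fen1. Intensities of different probe sets do not rank the amounts of their RNAs.

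Between the genotypes, the limma fit called no member once p-values were adjusted by Benjamini-Hochberg over the whole table. None of the 7770 probe sets (0%) had an adjusted p under 0.05, and 0.866 was the smallest among members. With unadjusted p-values 2 of 22 members were under 0.05, Rrm2 and Ube2c, both lower in Pac1-/- cells, against 2.92% of all tested genes, of which 0.62% lower and 2.3% higher. Both calls were lost with median centring (log2 differences of -1.31 for Rrm2 and -1.71 for Ube2c), without Pac1-/- replicate 1 (-1.93 and -2.53) and without Pac1-/- replicate 2 (-1.53 and -1.59). Rrm2 also lost its call without wild-type replicate 1 (-1.25) and with the probe sets of a gene averaged (-0.64). Ube2c lost its call without wild-type replicate 2 (-1.54) and with no intensity minimum (-2.06). Over all probe sets this threshold gave 88 lower (1.13%) and 175 higher (2.25%), 3.38% in all. The split was 93 and 110 on the values as deposited and 24 and 305 with each array centred on its median. With the replicate number added to the model as a block it turned, to 571 lower and 328 higher, although the labels do not say that the number pairs cultures. It was 360 and 48 without Pac1-/- replicate 1, 49 and 30 without wild-type replicate 2, and 51 and 35 without Pac1-/- replicate 2.

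Of the 22 tested members, 18 had a lower and 4 a higher mean log2 intensity in Pac1-/- cells, and the median log2 difference, Pac1-/- minus wild-type, was -0.31. Of all 4998 genes 43.9% were lower, and their median difference was 0.10. Centring each array on its median turned the sign of these sums, with 7 of 23 members lower and a median of 0.14, but it moved the median of all genes to 0.74, and 20 of the 23 members lay below it. Within the replicate numbers, 19 of 22 members were lower between the replicate 1 arrays (median -0.40) and 14 of 22 between the replicate 2 arrays (median -0.21). Lower within both numbers were 11 of 22 members, against 23.8% of all genes. Higher within both were 0 of 22, against 36.1%. The genotypes did not overlap in 3 tested members, Rrm2, Ube2c and Cdk4, all lower in Pac1-/- cells, which is 3 of 22 against 11.5% of all genes for that direction and 0 of 22 against 26.1% for the other. With the dim untested genes included, 6 of 44 members were lower and 3 higher without overlap, against 1246 and 2466 of 12393 genes. These counts describe a list chosen with earlier results in view and carry no test. The 3' signal of the beta-actin control relative to its 5' signal also differed between the genotypes within each number. It was 293 in Pac1-/- against 109 in wild-type cells for replicate 1 and 54.8 against 1.58 for replicate 2. The 5' signals were low, at 14.5 and 38.1 for replicate 1 and 44.3 for Pac1-/- replicate 2, so the 3 large ratios have no exact size. For Gapdh the replicate 1 ratios were 1.36 and 0.80. The part of this ratio in these counts was not tested.

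**Figure D2:**
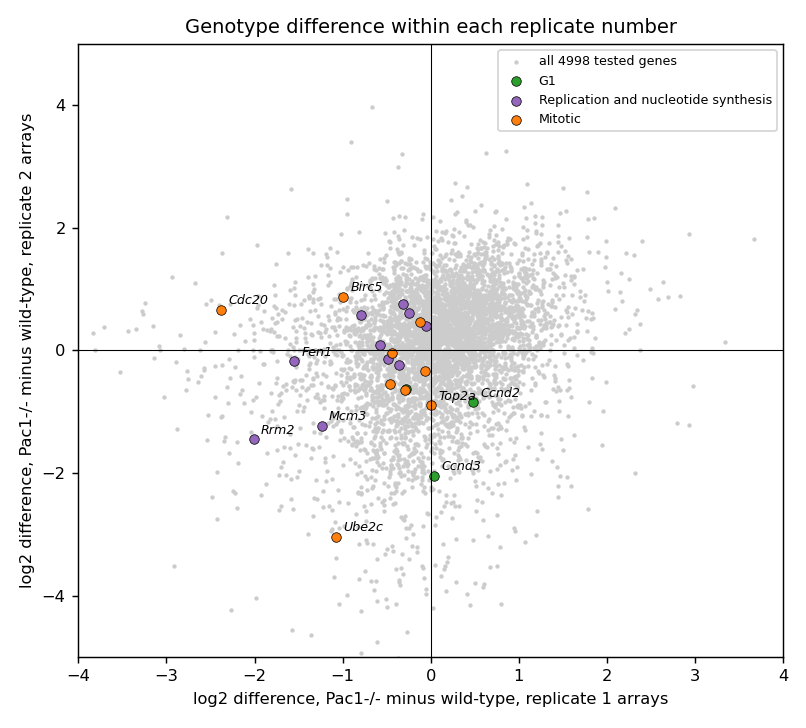
Log2 difference, Pac1-/- minus wild-type, between the replicate 1 arrays (horizontal) and between the replicate 2 arrays (vertical), for 4998 tested genes in grey and the 22 tested members in colour; 11 grey genes lie outside the axes. Rrm2, Mcm3 and Ube2c sit in the lower left quadrant, and no member sits in the upper right one.

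In the G1 group all 3 tested genes had a lower mean in Pac1-/- cells, with a median of -0.46 that was 0.18 with median centring. Cdk4 was the only 1 of the 3 lower within both replicate numbers. Cdk4, the kinase partner of the D-type cyclins, read 387.6 and 382.3 on wild-type replicates 1 and 2 and 319.1 and 246.4 on the Pac1-/- arrays. The Pac1-/- arrays both lay below the wild-type ones, by -0.46 ± 0.37 on the log2 scale (SE, 2 cultures per genotype; limma adjusted p = 0.866). Its other tested probe sets were also lower on average, at -0.56 and -1.15.

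Ccnd3, the cyclin D3 gene, read 457.6 and 753.7 in wild-type cells and 468.9 and 182.5 in Pac1-/- cells. The replicate 1 arrays differed by 0.04 on the log2 scale and the replicate 2 arrays by -2.05, and the fitted difference was -1.01 ± 0.66 (SE; limma adjusted p = 0.866). Pac1-/- replicate 2 alone was low, and the genotypes overlapped. Ccnd2 read 3443 and 2689 in wild-type cells and 4803 and 1494 in Pac1-/- cells by its brightest probe set. Here the replicate 1 difference was 0.48 and the replicate 2 difference -0.85, with -0.18 ± 0.72 (SE; limma adjusted p = 0.982) over both, and the genotypes overlapped.

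Ccnd2 has 7 tested probe sets, and they differed widely. In wild-type cells the brightest, 1434745_at, had a replicate 2 minus replicate 1 difference of -0.36, while 1416123_at read 2052 on replicate 1 and 32.95 on replicate 2. On Pac1-/- replicate 2 the probe sets 1416122_at, 1430127_a_at and 1455956_x_at read 182.2, 80.1 and 64.6, against 3097, 2360 and 866 on wild-type replicate 2. The genotype difference of Ccnd2 ran from -2.77 to 0.21 over its probe sets.

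The G1 members not tested were dim. Ccnd1, Ccne1, Ccne2, Cdk2 and E2f1, the genes of cyclin D1, the E cyclins, their kinase and the E2F1 factor, lay between 7.08 and 93 on the 4 arrays. Of these, Cdk2 was nearest to the minimum, with a mean of 80.4. The E cyclin genes Ccne1 and Ccne2 had means of 23.9 and 19.8, close to the floor of 16.

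**Figure D3:**
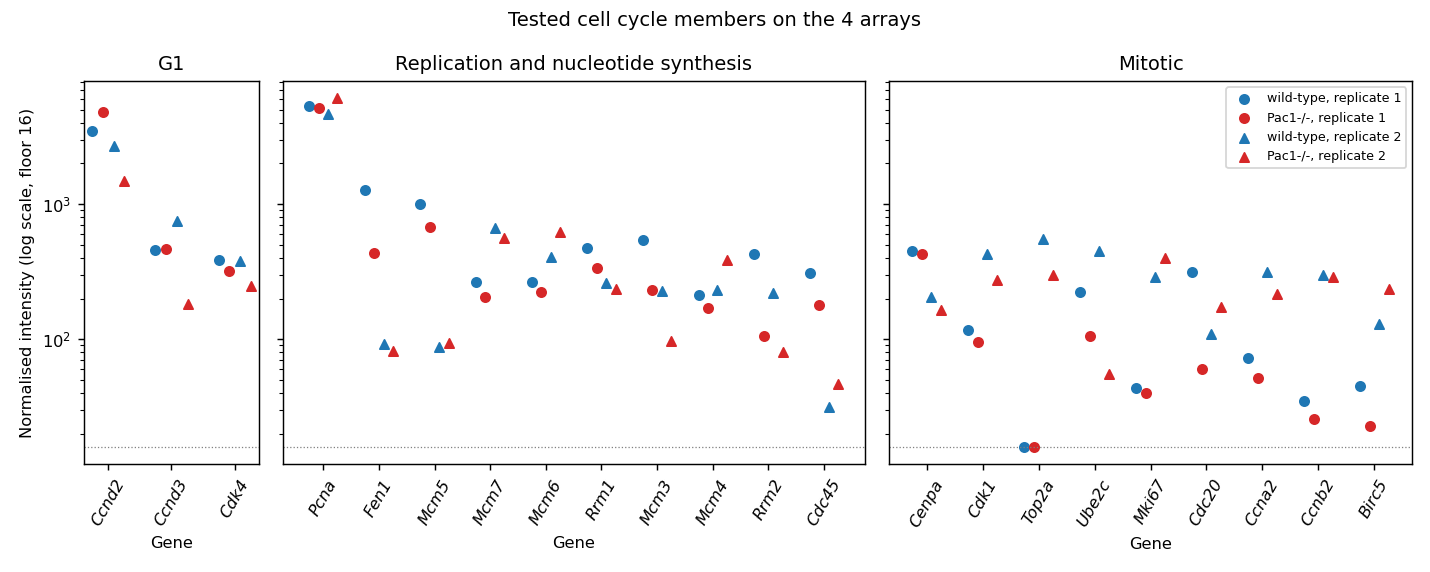
Normalised intensity on a log scale for the 22 tested members, by group and in order of mean intensity; circles are replicate 1 and triangles replicate 2 arrays, blue is wild-type and red Pac1-/-. Most mitotic genes show triangles above circles, while Fen1, Mcm5 and Cdc45 show the opposite.

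Among replication and nucleotide genes, 7 of 10 tested members were lower and 3 higher on average in Pac1-/- cells, with a median of -0.27 that was 0.20 with median centring. All 10 were lower between the replicate 1 arrays (median -0.53) but 5 of 10 between the replicate 2 arrays (median -0.03). Without wild-type replicate 1 the median was 0.14, with 4 of 10 lower.

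Rrm2, the small subunit of ribonucleotide reductase, which makes deoxynucleotides, read 425.8 and 219.5 in wild-type cells and 105.8 and 80.2 in Pac1-/- cells. Both Pac1-/- arrays were below both wild-type arrays. The log2 difference was -1.73 ± 0.51 (SE, n = 2 per genotype; 95% interval -3.19 to -0.27; limma adjusted p = 0.866), with -2.01 between the replicate 1 and -1.45 between the replicate 2 arrays. Its other probe sets gave no such separation. Probe set 1434437_x_at read 36.8 and 251.1 in wild-type and 19.1 and 400.1 in Pac1-/- cells, and 1448226_at read 184.1 and 69.4 in wild-type and 121.5 and 99.2 in Pac1-/- cells. Their genotype differences were -0.14 and -0.04.

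Rrm1, the large subunit of the same enzyme, read 469.4 and 259.1 in wild-type cells and 336.1 and 234 in Pac1-/- cells, a difference of -0.31 ± 0.50 (SE; limma adjusted p = 0.922). It was lower in Pac1-/- cells within both numbers, but the genotypes overlapped. A dimmer probe set, 1448127_at, read 90.4 and 522.3 in wild-type cells and 49.3 and 34.6 in Pac1-/- cells, without overlap, and differed by -2.40 ± 1.01 (SE; limma adjusted p = 0.866).

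The MCM genes encode the ring that unwinds DNA at the fork, and the 5 tested did not share a direction. Mcm3 read 546.6 and 229.5 in wild-type and 231.7 and 97.9 in Pac1-/- cells, so that both numbers gave the same log2 difference, -1.24 and -1.23, while the genotypes overlapped because the replicate 2 arrays were lower. The fit gave -1.23 ± 0.73 (SE; limma adjusted p = 0.866). The second tested probe set, 1449705_x_at, differed by -0.32. Mcm7 read 266.2 and 669.7 in wild-type and 207 and 565.2 in Pac1-/- cells, a difference of -0.30. Mcm5 read 1003 and 88.2 in wild-type and 674.9 and 93.6 in Pac1-/- cells, far apart between the numbers and near each other within them.

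Mcm4 and Mcm6 were lower in Pac1-/- cells between the replicate 1 arrays and higher between the replicate 2 arrays. Mcm4 read 212.4 and 230.3 in wild-type and 170.8 and 387.5 in Pac1-/- cells, and its fitted difference was 0.22. For Mcm6 the values were 266 and 405.2 in wild-type and 224.5 and 620.7 in Pac1-/- cells, with a fitted difference of 0.19. A second probe set of Mcm6, 1438852_x_at, read 129.7 and 19.1 in wild-type and 203.1 and 144.7 in Pac1-/- cells, without overlap and with a difference of 1.78 ± 1.09 (SE; limma adjusted p = 0.866).

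Pcna differed little between the arrays. It read 5322 and 4597 in wild-type and 5104 and 6041 in Pac1-/- cells, and the genotype difference was 0.17 ± 0.36 (SE; 95% interval -0.87 to 1.20; limma adjusted p = 0.955). Fen1, the nuclease that trims Okazaki fragments, read 1274.5 and 92.9 in wild-type and 434.5 and 82.3 in Pac1-/- cells. Its difference of -0.86 ± 1.68 (SE; limma adjusted p = 0.944) was made up of -1.55 for replicate 1 and -0.18 for replicate 2. Its second probe set, 1436454_x_at, read 221.2 and 376.1 in wild-type and 338.7 and 436 in Pac1-/- cells, the opposite genotype direction. Cdc45, part of the active helicase, read 309.8 and 31.4 in wild-type and 179.2 and 46.6 in Pac1-/- cells, a difference of -0.11.

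Cdc6, Mcm2, Tyms, Tk1, Gins1, Chek1 and Uhrf1 were not tested, with intensities between 1.55 and 198.5. Mcm2 was the nearest to the minimum, with a mean of 90.3, and read 68 and 198.5 in wild-type and 60.5 and 34.4 in Pac1-/- cells. The thymidylate synthase gene Tyms and the thymidine kinase gene Tk1, both enzymes that supply thymidine nucleotides, had means of 24.7 and 24.3. The checkpoint kinase gene Chek1 read 7.85 and 8.47 in wild-type and 38.7 and 48.6 in Pac1-/- cells, all in the dim range.

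In the mitotic group the mean was below that of wild-type cells for 8 of 9 tested members, Mki67 being the other, and the median difference was -0.45, or 0.11 with median centring. Within replicate 1 it was -0.44 (8 of 9 lower) and within replicate 2 -0.33 (6 of 9 lower). Without Pac1-/- replicate 1 the median was 0.51, and without wild-type replicate 2 it was 0.55, with 3 of 9 lower in either case. Leaving out 1 array leaves the numbers unbalanced between the genotypes.

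Ube2c, the ubiquitin-conjugating enzyme that works with the anaphase-promoting complex, read 222.6 and 453.1 in wild-type cells and 105.7 and 55.1 in Pac1-/- cells. Both Pac1-/- arrays were below both wild-type arrays, and the log2 difference was -2.06 ± 0.61 (SE, n = 2 per genotype; 95% interval -3.82 to -0.30; limma adjusted p = 0.866). Within the numbers it was -1.07 and -3.04. Ube2c has a single probe set.

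Top2a, Ccnb2 and Mki67 differed far more between the replicate numbers than between the genotypes. Top2a, the topoisomerase that untangles sister chromatids, read 8.31 and 551.2 in wild-type and 1.5 and 296.7 in Pac1-/- cells. Ccnb2, the cyclin B2 gene, read 34.9 and 298.9 in wild-type and 25.8 and 289 in Pac1-/- cells. Mki67, the proliferation marker, read 43.6 and 286.9 in wild-type and 40 and 396 in Pac1-/- cells. In each case both replicate 2 arrays were far above both replicate 1 arrays, and the genotype difference was -0.45 for Top2a, -0.24 for Ccnb2 and 0.17 for Mki67.

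Cdk1, the kinase that starts mitosis, read 117.5 and 430.3 in wild-type and 96 and 275.7 in Pac1-/- cells. Ccna2, the cyclin A2 gene, read 72.1 and 315.3 in wild-type and 52.1 and 215.3 in Pac1-/- cells. Both were lower in Pac1-/- cells within both numbers, by log2 differences of -0.29 and -0.64 for Cdk1 and of -0.47 and -0.55 for Ccna2, and both had higher values on the replicate 2 arrays. Neither passed the test at the unadjusted level (limma adjusted p = 0.949 and 0.957). The second Ccna2 probe set gave a fitted difference of -0.47, close to the -0.51 of the first.

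Birc5, the survivin gene, read 45.3 and 129.2 in wild-type and 22.7 and 237.3 in Pac1-/- cells, with opposite signs within the numbers, -0.997 and 0.88. Cenpa, the centromeric histone gene, went the other way between the numbers from most of the group, at 450.7 and 205.1 in wild-type and 430.4 and 163.3 in Pac1-/- cells. Cdc20, an activator of the anaphase-promoting complex, read 314.6 and 109.3 in wild-type and 60.5 and 173.3 in Pac1-/- cells by its brightest probe set. Its second probe set read 63.7 and 230.9 in wild-type and 52.9 and 133.6 in Pac1-/- cells. The 2 probe sets thus placed wild-type replicate 1 above or below wild-type replicate 2.

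The 10 mitotic members not tested were Bub1, Bub1b, Aurka, Aurkb, Plk1, Cenpe, Kif11, Kif20a, Nusap1 and Tpx2, genes of spindle checkpoint kinases, Aurora and Polo kinases, kinesins and spindle proteins, with intensities between 2.15 and 169.9. Nusap1 missed the minimum with a mean of 98.8, and read 50.8 and 144 in wild-type and 30.6 and 169.9 in Pac1-/- cells. Tpx2 read 19.75 and 116.9 in wild-type and 25.4 and 123.2 in Pac1-/- cells. The Polo kinase gene Plk1 read 41.4 and 69.7 in wild-type and 30.4 and 29.5 in Pac1-/- cells.

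The arrays were also compared by replicate number. Both replicate 2 arrays were above both replicate 1 arrays in 6 of 9 tested mitotic members (Top2a, Ccnb2, Mki67, Cdk1, Ccna2 and Birc5), in 3 of 10 replication and nucleotide genes (Mcm4, Mcm6 and Mcm7) and in 0 of 3 G1 genes, against 22.9% of all tested genes. The reverse was seen in 1 mitotic member (Cenpa), in 5 replication and nucleotide genes (Rrm1, Mcm3, Mcm5, Fen1 and Cdc45) and in 1 G1 gene (Ccnd2), against 17.7% of all tested genes. The median replicate 2 minus replicate 1 difference of the mitotic group was 1.87 in wild-type and 2.05 in Pac1-/- cells, and that of the replication group was -0.91 and -0.46. Top2a, Ccnb2, Mki67, Ccna2 and Birc5 read under 100 on both replicate 1 arrays, and Mcm5, Fen1 and Cdc45 on both replicate 2 arrays. They reached the minimum mean of 100 through the arrays where they were high, so these counts and medians depend in part on that minimum. With the untested genes included, 13 of 19 mitotic members were higher on both replicate 2 arrays, against 17.3% of 12393 genes. Of 17 replication and nucleotide genes 5 were then higher and 5 lower, against 17.3% and 13.7%. On the values as deposited and with median centring the mitotic count of 6 was the same, while the replication count of 5 was 5 and 4. The numbers also differed in Cd68, which made up most of the summed macrophage markers of replicate 1, and in Ms4a2, both given above. The 3' to 5' ratio of beta-actin was 109 and 293 for replicate 1 against 1.58 and 54.8 for replicate 2 (wild-type, then Pac1-/-). For Gapdh the ratio was 0.80 and 1.36 for replicate 1 against 0.84 and 191 for replicate 2. The part of these in the split was not tested. The split itself is given as counts that were added after seeing the data, and no test of it was run.

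Probe sets of the same gene often disagreed on that split. Of 10 members with at least 2 tested probe sets, 9 had probe sets on both sides of 0 for the replicate 2 minus replicate 1 difference averaged over the genotypes, against 52.7% of 1468 genes. These members have between 2 and 7 tested probe sets, and for Cdc20 the lower value was -0.003. Mcm7 ranged from -3.18 for 1439269_x_at to 2.90 for 1416030_a_at, and Rrm2 from -0.85 to 3.58. Only Ccna2 had all its tested probe sets on 1 side, at 2.09 and 2.22. For the genotype difference 3 of 10 had probe sets on both sides of 0 (Ccnd2, Mcm7 and Fen1), against 57.0% of the 1468 genes. Over the 18 tested probe sets of members other than the brightest, 14 were lower in Pac1-/- cells, against 47.1% of all tested probe sets. These 18 belong to the same 10 members, and Ccnd2, with 7 tested probe sets in all, supplied the most. Probe sets of 1 gene are not independent observations. The genotypes did not overlap in 4 of the 18 on the lower side (13.4% of all tested probe sets) and in 1 on the higher side (24.3%).

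**Figure D4:**
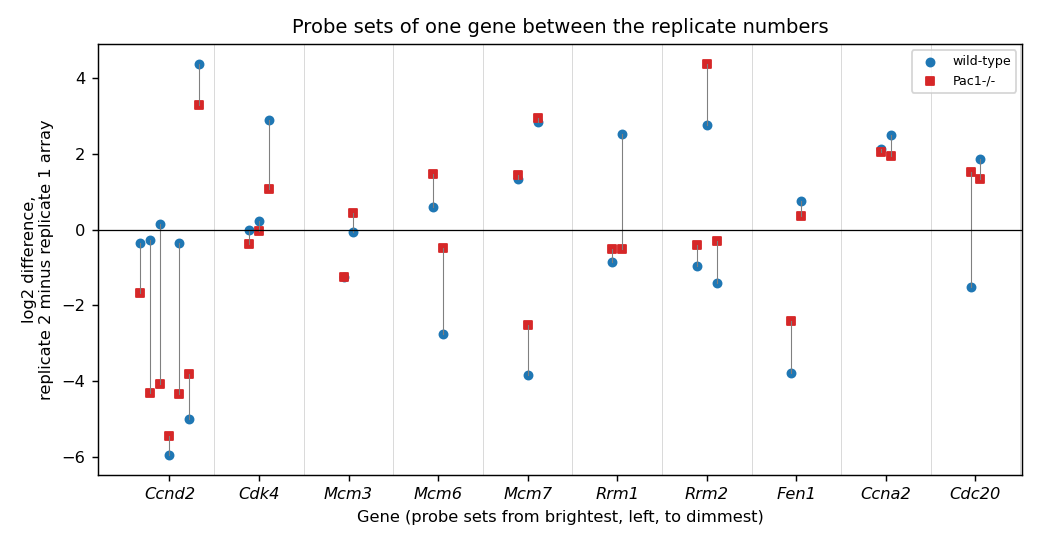
Log2 difference, replicate 2 minus replicate 1 array, for each tested probe set of the 10 members with several, in wild-type (blue circles) and Pac1-/- cells (red squares); a grey line joins the genotypes of a probe set. Probe sets of Ccnd2, Mcm7, Rrm2 and Fen1 lie on both sides of 0.

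Other cell cycle genes were counted in the same way. Of 137 further cell cycle genes in 4 lists, 123 were on the array and 53 were tested, and 21 of these had a lower and 32 a higher mean in Pac1-/- cells. Their median, 0.10, was that of all genes. None of the 53 passed the adjusted test, and 1 of the 53 passed at the unadjusted level, against 2.92% of all tested genes. Other replication and nucleotide genes had 10 of 21 lower (median 0.03), other mitotic genes 6 of 15 (median 0.10), other cyclins, kinases and transcription factors 2 of 8 (median 0.16), and CDK inhibitors, pocket proteins and antiproliferative genes 3 of 9 (median 0.26). By replicate number, 7 of the 21 other replication and nucleotide genes were higher on both replicate 2 arrays and 5 were lower. Their median replicate 2 minus replicate 1 difference was 0.26 in wild-type and 0.22 in Pac1-/- cells, the opposite sign to that of the replication members. For other mitotic genes 7 of 15 were higher and 1 lower, with medians of 0.35 and 0.63. Of all tested genes 22.9% were higher and 17.7% lower. Smc2, Pbk, Cdca5, Stmn1, Rpa3, Asf1b and Prim1, counted as higher, read under the minimum mean on both replicate 1 arrays. Cdca3, Orc1, Orc2, Rfc1 and Ung, counted as lower, did so on both replicate 2 arrays. These genes reached that mean through the arrays where they were high, so these counts and medians depend in part on the minimum. The differences between these lists and the members were not tested.

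The gene past the unadjusted test was Rbl2, which encodes the pocket protein p130 of the DREAM repressor complex. It read 45.9 and 72.8 in wild-type and 212.9 and 218.6 in Pac1-/- cells, or 1.90 ± 0.42 on the log2 scale (SE, 2 cultures per genotype; limma adjusted p = 0.866). Ccng1, a cyclin G gene, read 328.8 and 146.3 in wild-type and 575.1 and 577.4 in Pac1-/- cells, and Ccng2 read 144.4 and 154.6 and then 243.2 and 289.9. In these 3 genes both Pac1-/- arrays were above both wild-type arrays, as in 26.1% of all tested genes. Rbl2, Ccng1 and Ccng2 have 2, 3 and 2 probe sets, and only the brightest of each is given here. Rbl2 reached the minimum mean of 100 through its Pac1-/- arrays. The CDK inhibitor gene Cdkn1a had 3011 and 3296 in wild-type against 2929 and 1753 in Pac1-/- cells, and its fitted difference was -0.48 ± 0.44 (SE; limma adjusted p = 0.875). Both Pac1-/- arrays were below both wild-type arrays, as in 11.5% of all tested genes.

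Of the other replication genes, Orc4 and Orc6, subunits of the origin recognition complex, had differences of 1.01 ± 0.42 and 0.81 ± 0.37 (SE, n = 2 per genotype), and the licensing factor Cdt1 had 0.72 ± 0.36, all with a limma adjusted p of 0.866. Slbp, which binds histone mRNA, was at 1.03 ± 0.57. Of the mitotic list, the condensin gene Smc4 had 0.79 ± 0.38, the securin gene Pttg1 0.65 ± 0.38, the importin gene Kpna2 0.47 ± 0.43 and the microtubule polymerase gene Ckap5 -0.41 ± 0.37. Among other cyclins and kinases, Cdk6 read 542.7 and 58.6 in wild-type and 272.3 and 8.97 in Pac1-/- cells, Cks1b differed by -0.91 ± 1.24, Cdk7 by 0.58 ± 0.44 and Ccnh by 0.18 ± 0.34. None of the genes of this paragraph passed the test at the unadjusted level.

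**Figure D5:**
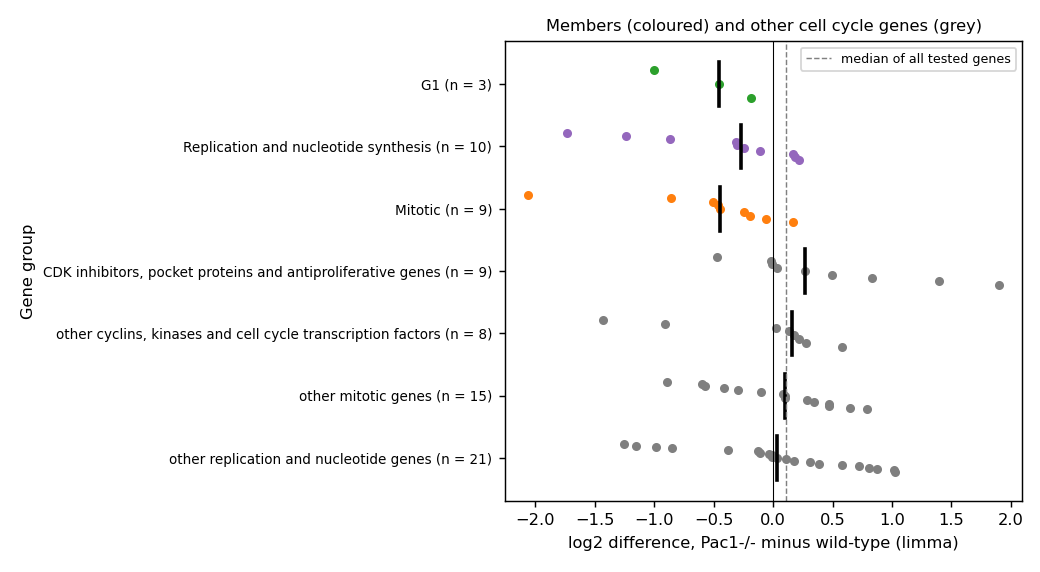
Log2 difference, Pac1-/- minus wild-type, for the tested members in 3 groups (coloured) and for 53 other cell cycle genes in 4 lists (grey); each point is a gene, black bars are medians and the dashed line is the median of all tested genes, 0.10. The member medians lie at -0.46, -0.27 and -0.45, and those of the other lists between 0.03 and 0.26; with median centring the member medians were 0.18, 0.20 and 0.11, against 0.74 for all genes.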

How the data were processed

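RNA of 4 mast cell cultures, 1 array per culture, had been measured on Affymetrix 430A arrays, with 500 to 1000 ng of RNA amplified per sample, per the labels' protocols. The authors deposited linear intensity values, and the submitters' processing notes name MAS5; the series' design text describes RMA and Limma 1.3.12, and RMA values were not used here. Of 22690 probe sets, 64 controls were left out and 20380 of the others carry 1 symbol. The 4 arrays were quantile normalised, values below 16 were set to 16, log2 was taken, and 7770 probe sets with a mean of at least 100 entered a genotype-only model in limma 3.58.1 (R 4.3.3; lmFit, eBayes; two-sided p-values, Benjamini-Hochberg adjusted, called under 0.05), with 2 residual and 1.71 prior degrees of freedom per test. With 2 arrays a genotype, 0.333 is the smallest p an exact permutation test allows, so none is reported. The p-values measure the spread between 2 cultures, independent per the series' design text, and most of it followed the replicate number: of the summed squares, the numbers held 71.9% for all tested probe sets and 76.3% for those of the members, and the genotypes 17.9% and 14.3%. The number of arrays limits the precision. The members, the gene lists, the motifs and the rule for named genes were chosen with earlier results of these data known. The rule takes, per group, the 6 tested members with the lowest p and the 3 brightest with their values on all arrays, and up to 4 genes per other list; further members are also given. Alternatives were the values as deposited, median centring, no minimum, a minimum of 200, a floor of 64, an intensity trend, the replicate block, leaving out each array, and averaging probe sets. The steps were tested on simulated data. Plots used Python 3.11.15 with matplotlib 3.10.9.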

Additional observations from a re-analysis of the deposited data

How the results depend on the processing

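No probe set passed the adjusted test under any alternative run, and no tested member did. Over all probe sets, the counts lower and higher at an unadjusted p under 0.05 were 88 and 175. They were 93 and 110 on the values as deposited, 24 and 305 after median centring, 524 and 1238 without the minimum, 33 and 77 with a minimum of 200, and from 49 to 360 and from 30 to 123 when each array was left out in turn. The median over all members was -0.31. It was -0.45 on the values as deposited, 0.14 with median centring (7 lower), -0.45 with probe sets averaged, and between -0.58 and -0.34 with an array left out (12 to 16 lower). With no minimum 28 of 44 members were lower. Median centring gave 0.18 for the G1 group (1 lower), 0.20 for replication and nucleotide genes (3 lower) and 0.11 for mitotic genes (3 lower), all below the median of all genes. The mitotic median was also -0.24 with no minimum (14 lower) and -0.36 with a floor of 64, and with a minimum of 200, which left 4 mitotic genes, all 4 were lower. With an array left out the medians ran from -1.25 to 0.14 for replication (4 to 6 lower), from -1.59 to 0.55 for mitotic (3 to 8 lower) and from -1.03 to -0.27 for G1 genes (2 to 3 lower). With median centring 0 G1 genes were lower on both replicate 2 arrays. The counts of members higher or lower on both replicate 2 arrays, in every group, were added after seeing the data.

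Single members with the sign turned by median centring were Ccnd2 (0.58), Cdk4 (0.18), Cdc45 (0.091), Mcm5 (0.094), Mcm7 (0.45), Rrm1 (0.30), Top2a (0.047), Ccnb2 (0.18), Cdk1 (0.14), Birc5 (0.29) and Cenpa (0.32), and Birc5 turned with a floor of 64 (0.44). With an array left out, both signs occurred for Ccnd2 (-1.03 to 0.66), Cdc45 (-1.76 to 1.54), Mcm4 (-0.37 to 0.81), Mcm5 (-2.00 to 1.51), Mcm6 (-0.55 to 0.92), Mcm7 (-1.03 to 0.42), Rrm1 (-0.74 to 0.11), Fen1 (-2.75 to 1.03), Mki67 (-1.48 to 1.82), Top2a (-3.0 to 2.11), Ccnb2 (-1.98 to 1.50), Ccna2 (-1.57 to 0.55), Cdk1 (-1.40 to 0.47), Birc5 (-1.75 to 1.63) and Cenpa (-0.90 to 0.50).

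The unadjusted calls of Rrm2 and Ube2c were lost under the settings given with them. The labels do not say that a replicate number pairs cultures, and 2 pairs are too few to settle it from the data, although deviations from the genotype means correlated at 0.75 between arrays of the same number over tested probe sets. With the replicate block 571 of 7770 probe sets were lower and 328 higher at the unadjusted level, and 0 passed the adjusted test. Most calls were thus lower where most were higher without it (88 and 175). Rrm2, Ube2c and Mcm3 were then past the unadjusted test (adjusted p = 0.377, 0.377 and 0.398 by limma), each lower in Pac1-/- cells in 2 of 2 numbers. They are 3 of 22 tested members, all lower, beside 571 of 7770 called lower, which counts probe sets and not genes. Genes near the floor of 16 have no exact sizes.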
